A study of Mus musculus with 9 samples.

Results

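Primary mouse microglia, the resident macrophages of the brain, were compared after IL-4 and after PBS, the vehicle. The comparison takes the 3 arrays labelled as IL-4 stimulated and the 3 labelled as PBS stimulated, 6 of the 9 arrays of the series, and all rows of the deposited table that carry 1 gene symbol, 18786 of 21212. The cells came from the brains of wild-type CD-1 pups at postnatal day 0 to 1, pooled by litter, were enriched on a Percoll density gradient after the meninges had been taken off, and were grown for 5 to 7 days with 10 ng/ml each of the colony stimulating factors M-CSF and GM-CSF. Every culture spent the night before treatment without serum and then received 20 ng/ml IL-4 or an equal volume of PBS for 4 h. The remaining 3 arrays hold cells of the same kind given 100 ng/ml LPS, the bacterial cell wall component, for 4 h, and serve only for a direct comparison with IL-4. So both groups carry the growth factors and the serum withdrawal, and neither is a freshly isolated microglial cell.

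Nothing in the sources used here says whether the 3 arrays of a group are separate litters or separate cultures, so the p-values rest on how far these arrays differ within a group, and part of that may be technical. RNA levels were read on an Affymetrix exon array, and all levels below are log2 signals as deposited, so that a difference of 1 is a doubling. A level says little about one gene against another, because probes differ in brightness, and only the same gene is compared between arrays.

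IL-4 binds a receptor on macrophages whose Janus kinases phosphorylate the transcription factor STAT6. STAT6 then switches on the genes of alternative activation, among them chitinase-like proteins, arginase, lectins and chemokines, together with SOCS proteins that dampen cytokine signals. Interferon-stimulated genes answer instead to type I interferon, through STAT and IRF factors, and include antiviral effectors such as the Ifit, Oas and Mx proteins. In microglia, IL-4 is known as the cytokine of the state called M2a, and LPS as the trigger of the inflammatory state called M1.

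The promoters of several leading genes are shown first, because they hold the letters that STAT or interferon-driven factors are known to bind. Each window is RefSeq sequence of the mouse build GRCm38.p6, 300 bases from 250 bases before to 50 bases after the annotated start, read 5′ to 3′ on the + strand, on which all 7 genes lie. Capitals mark the motif. The genes were picked, with their values known, from the largest changes that held against all PBS arrays and whose window had a match. The first motif, TTC and GAA with 4 bases between them, reads the same on both strands and has the spacing that STAT6 prefers. It stood in the windows of Retnla (chr16:48842359-48842658, the match beginning 145 bases before the start), Tmem26 (chr10:68723496-68723795, 227 and 41 bases before) and Pdcd1lg2 (chr19:29410669-29410968, 82 bases before), 3 genes that rose with IL-4.
Retnla: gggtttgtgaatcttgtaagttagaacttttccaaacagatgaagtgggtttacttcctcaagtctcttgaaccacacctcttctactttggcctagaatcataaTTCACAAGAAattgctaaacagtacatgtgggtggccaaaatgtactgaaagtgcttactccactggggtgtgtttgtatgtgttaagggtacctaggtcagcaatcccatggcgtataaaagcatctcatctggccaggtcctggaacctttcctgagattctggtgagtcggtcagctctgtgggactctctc
Tmem26: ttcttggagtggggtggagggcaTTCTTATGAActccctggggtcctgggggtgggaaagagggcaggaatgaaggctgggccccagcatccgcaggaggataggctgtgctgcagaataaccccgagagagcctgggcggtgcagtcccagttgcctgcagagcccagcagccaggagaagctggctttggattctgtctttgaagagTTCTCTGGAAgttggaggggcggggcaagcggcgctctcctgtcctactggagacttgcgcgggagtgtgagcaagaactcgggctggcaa
Pdcd1lg2: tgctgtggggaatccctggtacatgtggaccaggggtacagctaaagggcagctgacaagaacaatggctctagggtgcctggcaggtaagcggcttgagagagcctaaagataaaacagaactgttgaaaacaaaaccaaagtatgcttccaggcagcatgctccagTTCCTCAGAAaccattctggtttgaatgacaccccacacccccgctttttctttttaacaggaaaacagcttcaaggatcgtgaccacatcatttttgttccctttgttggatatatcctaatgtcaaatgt
The same letters with 3 bases between them, the spacing that most other STAT proteins prefer, stood in the window of Cish (chr9:107296409-107296708), a feedback inhibitor that rose, beginning at bases 1 and 12 of the transcribed part.
Cish: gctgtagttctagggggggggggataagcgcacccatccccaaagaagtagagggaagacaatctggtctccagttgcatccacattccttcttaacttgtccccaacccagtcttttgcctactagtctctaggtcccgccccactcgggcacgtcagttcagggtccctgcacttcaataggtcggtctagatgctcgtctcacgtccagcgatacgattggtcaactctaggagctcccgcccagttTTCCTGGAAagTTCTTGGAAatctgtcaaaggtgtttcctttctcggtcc
TTTC repeated after 2 bases, or GAAA repeated after 2 bases on the other strand, is the core of the interferon-stimulated response element. It stood in the windows of Slfn5 (chr11:82951852-82952151, 155 bases before the start), Ifit3b (chr19:34607707-34608006, 188 and 154 bases before) and Tmem140 (chr6:34862896-34863195, 63 bases before), 3 genes that fell.
Slfn5: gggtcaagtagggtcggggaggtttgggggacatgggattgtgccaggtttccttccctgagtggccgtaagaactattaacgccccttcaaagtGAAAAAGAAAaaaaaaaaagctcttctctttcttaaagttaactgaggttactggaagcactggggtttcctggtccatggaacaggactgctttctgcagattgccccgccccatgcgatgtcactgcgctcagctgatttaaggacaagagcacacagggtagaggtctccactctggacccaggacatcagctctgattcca
Ifit3b: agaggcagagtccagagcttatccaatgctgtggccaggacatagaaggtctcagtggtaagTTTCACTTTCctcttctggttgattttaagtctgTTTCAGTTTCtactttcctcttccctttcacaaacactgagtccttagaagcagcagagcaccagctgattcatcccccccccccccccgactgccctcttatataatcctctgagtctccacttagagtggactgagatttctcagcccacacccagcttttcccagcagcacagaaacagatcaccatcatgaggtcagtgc
Tmem140: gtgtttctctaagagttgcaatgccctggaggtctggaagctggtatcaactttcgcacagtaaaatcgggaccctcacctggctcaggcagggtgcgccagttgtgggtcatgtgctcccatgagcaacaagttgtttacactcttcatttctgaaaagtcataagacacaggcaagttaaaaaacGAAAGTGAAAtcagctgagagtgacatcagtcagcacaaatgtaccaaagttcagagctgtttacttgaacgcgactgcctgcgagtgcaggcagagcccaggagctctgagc
These motifs may overlap one another. Of the 15060 genes with a window, 7.26% held the motif with 4 bases between TTC and GAA, against 18 of the 133 held rises (13.5%), 7 of the 26 alternative activation effectors (26.9%), 10.6% of the held falls and 6 of the 37 interferon-stimulated genes (16.2%), which fell as a list. The motif with 3 bases between them was in 9.08% of all windows, 12% of those of the held rises, 17.3% of those of the held falls and 24.3% of those of the interferon-stimulated genes. Among the 20 largest held rises and falls it was also in the windows of Chil3, which rose, and of Ifitm6, Fcgr1 and Ada, which fell, with 1 match each. The motif with 4 bases was in 3 of the 16 windows of the 20 largest held rises, those shown above. Of the 18 windows of the 20 largest held falls 1 held it, that of Ms4a6b. The interferon motif was in 3.94% of all windows on either strand, 32 of the 104 of held falls (30.8%), 16 of the 37 of interferon-stimulated genes (43.2%) and 5.26% of those of the held rises. A match is a description of letters in this window and not a binding site.

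The scale of the response came next. By limma over the 9 arrays, with p-values adjusted over all rows, 1062 genes (5.65%) were called between IL-4 and PBS at an adjusted p under 0.05. Of these, 672 (3.58% of all genes tested) were higher with IL-4 and 390 (2.08%) lower. Changes were mostly small: the median change of the called rises was 0.42 and of the called falls -0.49, 69 rises and 47 falls reached a doubling (a difference of 1), and 16 rises and 2 falls reached a difference of 2. The median over all genes was -0.01. The 3 IL-4 arrays lay wholly above or wholly below the 3 PBS arrays for every called gene, which also held for 15.5% of all genes (higher) and 14% (lower).

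PBS replicate 3 stood apart from PBS replicates 1 and 2, and each gene was therefore also set against these separately. On the second principal component, which carried 16% of the variance, PBS replicates 1 and 2 lay at 28.3 and 26.8 and PBS replicate 3 at -16.6, beyond the IL-4 arrays at -6.2, -13.2 and -11.1. LPS replicate 3 lay apart from LPS replicates 1 and 2 in the same sense, at -30.9 against 10.5 and 12.4. A gene is called held below when it was called and its IL-4 mean lay at least 0.5 beyond the mean of PBS replicates 1 and 2 and at least 0.5 beyond PBS replicate 3, in the same direction. The size rule reads the same values as the call, so the count of held genes is a description. It kept 181 rises (0.963% of all genes tested) and 132 falls (0.703%).

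Of the 672 called rises, 65 reached the size only against PBS replicates 1 and 2, 64 only against PBS replicate 3, and 362 against neither. For the 390 called falls these counts were 70, 29 and 159. Among the held rises the median difference was 0.83 against PBS replicates 1 and 2 and 0.94 against PBS replicate 3, and among the held falls -0.83 and -0.80. Just inside the size rule lay Igdcc4, at 0.518 and 0.502 against the respective PBS sets, and Abcc3, at -0.508 and -1.004. Just outside lay Etv5 at 0.5 and 0.506 and Znfx1 at -0.498 and -0.498. Without PBS replicate 3, where 5.36% of all genes were called higher and 4.64% lower, 178 of the 181 held rises and 130 of the 132 held falls were still called. With PBS replicate 3 as the only PBS array, where 1.63% were called higher and 0.921% lower, 127 and 90 were called. When each of the 6 arrays was left out in turn, 132 held rises and 102 held falls were called every time.

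**Figure D1:**
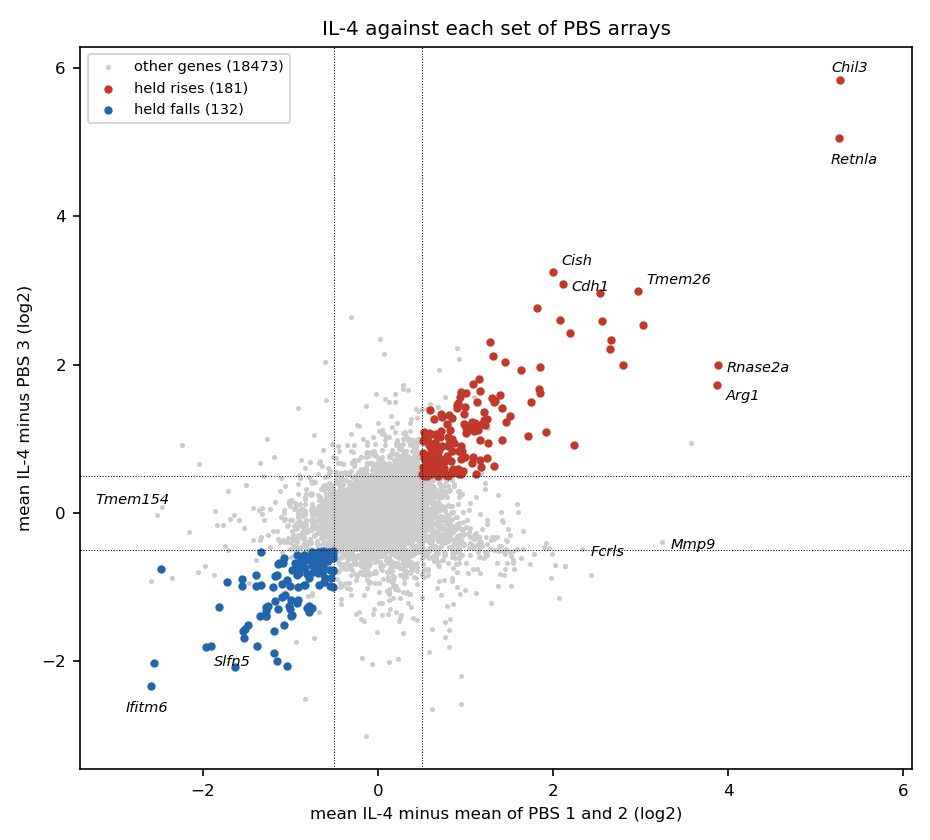
Each point is a gene with 1 symbol, with its IL-4 mean minus the mean of PBS replicates 1 and 2 on the horizontal axis and minus PBS replicate 3 on the vertical axis (log2), and dotted lines at 0.5 in each direction. The 181 held rises (red) and 132 held falls (blue) lie beyond the lines on both axes, while Mmp9 (3.24 and -0.39) and Tmem154 (-2.53 and -0.03) moved against PBS replicates 1 and 2 only.

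The effectors of alternative activation gave the largest rises. Chil3, a secreted protein of the chitinase family that lacks chitinase activity, stood at 9.90, 9.62 and 9.49 on the IL-4 arrays and at 4.45, 4.33 and 3.83 on the PBS arrays. All IL-4 values were thus far above all PBS values, and the rise was 5.47 ± 0.18 (SE, n = 3 arrays a group, 44.2-fold, limma adjusted p = 5.18e-06). Its near-identical relative Chil4 can share probes with it, so the split between these genes is uncertain. Retnla, which encodes the secreted resistin-like protein of the same state, stood at 8.74, 9.24 and 9.30 with IL-4 and at 3.94, 3.71 and 4.05 with PBS. The groups did not overlap, and the rise was 5.19 ± 0.15 (36.6-fold, adjusted p = 3.99e-06). Against PBS replicates 1 and 2 and against PBS replicate 3 the differences were 5.28 and 5.84 for Chil3 and 5.27 and 5.05 for Retnla. Their PBS means of 4.2 and 3.9 were dim, with 9.32% and 7.09% of all genes at or below them, and the deposited table carries no background calls. The folds are those of the deposited signals, and where the PBS signal is background they are lower bounds.

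Arg1, the arginase that turns arginine into ornithine and urea, stood at 10.69, 11.30 and 11.27 with IL-4 and at 7.50, 6.93 and 9.36 with PBS. PBS replicate 3 was well above the other PBS arrays but still below every IL-4 array. The rise was 3.15 ± 0.58 (8.90-fold, limma adjusted p = 0.0182), made up of 3.87 against PBS replicates 1 and 2 and 1.72 against PBS replicate 3. The call was lost without any one of IL-4 replicates 1, 2 and 3 and PBS replicates 1 and 2, with adjusted p up to 0.0828, and kept without PBS replicate 3. Rnase2a, a ribonuclease of the eosinophil family whose close paralogs can share probes, showed the same layout at 10.36, 10.74 and 10.88 against 6.66, 6.90 and 8.66. It rose by 3.25 ± 0.57 (adjusted p = 0.0145), and this call was lost without IL-4 replicate 2 or 3 or PBS replicate 1 or 2 (adjusted p up to 0.0711).

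Other surface and secreted proteins rose, some evenly and some with a wide spread between PBS arrays. Tmem26, a transmembrane protein, stood at 8.72, 9.10 and 8.89 with IL-4 and at 5.95, 5.91 and 5.91 with PBS, and rose by 2.98 ± 0.09 (7.88-fold, limma adjusted p = 3.99e-06). Pdcd1lg2, the second ligand of the PD-1 checkpoint receptor, stood at 7.11, 7.25 and 7.30 with IL-4 and at 4.99, 5.07 and 4.80 with PBS. Its groups did not overlap and it rose by 2.26 ± 0.13 (4.80-fold, adjusted p = 7.54e-05). Its PBS mean of 4.95 was dim, with 15.9% of all genes at or below it. Mgl2, a galactose-type C-type lectin, stood at 8.18, 9.07 and 8.84 against 6.12, 6.17 and 6.1 and rose by 2.57 ± 0.22 (adjusted p = 4.37e-04), and its sister lectin Clec10a rose by 1.49 ± 0.22 (adjusted p = 0.00695). Olr1, a receptor for oxidised lipoprotein, stood at 8.89, 9.06 and 9.14 against 5.93, 6.07 and 6.49 and rose by 2.87 ± 0.14 (adjusted p = 3.30e-05). Gpr84, a receptor for medium-chain fatty acids, rose by 2.51 ± 0.18 (adjusted p = 1.97e-04). Flt1, a receptor for vascular endothelial growth factor, stood at 9.68, 9.82 and 9.78 against 6.99, 7.21 and 7.43 and rose by 2.55 ± 0.10 (5.86-fold, adjusted p = 1.74e-05). Cdh1, the adhesion protein E-cadherin, stood at 9.63, 9.33 and 9.38 against 7.29, 7.39 and 6.36, with PBS replicate 3 the lowest array, and rose by 2.44 ± 0.27 (adjusted p = 0.00183). The neuropeptide precursor Npvf (2.25 ± 0.17), the myeloid receptor Tarm1 (1.89 ± 0.12) and the ankyrin repeat gene Ankrd55 (1.78 ± 0.11) were also among the 20 largest held rises. Cst7, the protease inhibitor cystatin F, rose by 1.80 ± 0.32 (adjusted p = 0.0164), a call lost without IL-4 replicate 2 or 3 or PBS replicate 1 or 2 (adjusted p up to 0.0771).

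**Figure D2:**
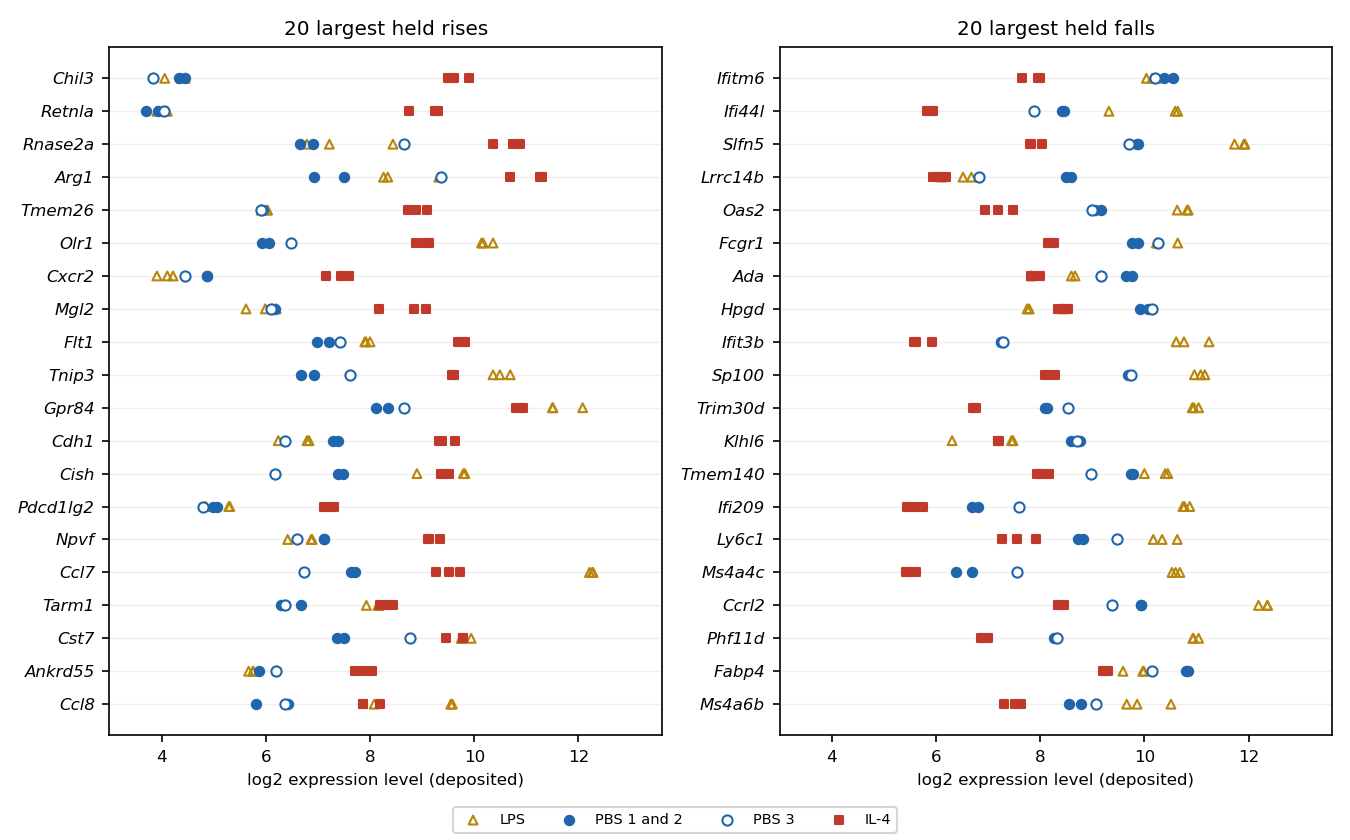
Deposited log2 level of the 20 largest held rises (left) and 20 largest held falls (right), 1 symbol per array: IL-4 (red squares), PBS replicates 1 and 2 (filled blue circles), PBS replicate 3 (open blue circles) and LPS (open triangles). In each row the 3 IL-4 arrays lie apart from all 3 PBS arrays, and in Arg1 PBS replicate 3 (9.36) lies between the other PBS arrays (7.50 and 6.93) and the IL-4 arrays.

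Of 35 measured effectors on the alternative activation list, 22 were higher with IL-4, 19 of them held, and none was lower by limma (background 3.58% and 2.08%). At an unadjusted p under 0.05 these counts were 23 and 2. The same background shares stand behind each count of called members below. The median change of the list was 0.75, against -0.01 over all genes. It was 0.90 against PBS replicates 1 and 2 and 0.96 against PBS replicate 3. The list holds genes that the study itself read in these cells, and it was drawn up with earlier results known, so the count is not independent evidence of its direction. The methods' t-test over the 6 arrays called 12 members higher and 1, Msr1, lower. Msr1, a scavenger receptor, was not called by limma, at -0.18 with an adjusted p of 0.0595. Some known effectors were not called. Mrc1, the mannose receptor, stood at 11.24, 11.33 and 11.31 with IL-4 and at 10.82, 10.90 and 9.89 with PBS, a difference of 0.75 (adjusted p = 0.361). F13a1, the coagulation factor subunit made by such macrophages, differed by -0.18 from PBS replicates 1 and 2 and by -1.96 from PBS replicate 3, and was not called (adjusted p = 0.340). Mrc1 and F13a1 were chosen after their values were seen.

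Genes of the receptor and its kinases changed in both directions. Of 18 measured genes of the receptor and its proximal signaling, 2 were higher and 4 lower, with none held. With any 1 of the 6 arrays left out these counts were 1 and 2 to 3. Il4ra, the receptor chain that binds IL-4, stood at 8.75, 8.93 and 8.89 with IL-4 and at 9.41, 9.42 and 9.30 with PBS. It fell by 0.52 (SE 0.07, limma adjusted p = 0.00551), which is -0.44 against PBS replicate 3 and so short of the size rule. Il13ra1, its partner chain in the shared IL-13 receptor, also fell, by 0.44 (SE 0.07, adjusted p = 0.00743). Jak2, one of the Janus kinases, rose by 0.62 ± 0.08 (adjusted p = 0.00505). Stat6 itself was not called, at 9.53 on all 3 IL-4 arrays against 9.77, 9.85 and 9.43 with PBS, a difference of -0.15 (adjusted p = 0.616). Ptpn2, Inpp5d and, chosen after its values were seen, Pik3cd completed the called genes, with changes of 0.40, -0.34 and -0.29, and the calls of Ptpn2 and Inpp5d were lost without each of the 6 arrays (adjusted p up to 0.143 and 0.144).

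Several feedback inhibitors rose. Of 8 SOCS family genes 4 were higher, 3 of them held, and none was lower (background 3.58% and 2.08%). The count of 4 was 2 without IL-4 replicate 1 or 2 or PBS replicate 1 or 2. At an unadjusted limma p under 0.05, 4 were higher and 1 lower, and the methods' t-test called 1 higher. Cish stood at 9.51, 9.36 and 9.43 with IL-4 and at 7.49, 7.38 and 6.18 with PBS. PBS replicate 3 was the lowest array, so the rise of 2.42 ± 0.36 (limma adjusted p = 0.00736) was 2.0 against PBS replicates 1 and 2 and 3.25 against PBS replicate 3. Socs1 stood at 8.53, 8.56 and 8.56 against 7.49, 7.18 and 7.34 and rose by 1.21 ± 0.09 (adjusted p = 2.47e-04). Socs2 rose by 0.85 ± 0.19 and Socs5 by 0.30 ± 0.06, and leaving out any one of 5 arrays lost either call: for Socs2 every array but PBS replicate 3 (adjusted p up to 0.142), for Socs5 every array but IL-4 replicate 3 (up to 0.127). Socs6, at -0.71, was not called (adjusted p = 0.110).

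Among 24 transcription factors linked to alternative activation, 10 were higher, 6 of them held, and 1 was lower. Their median change was 0.35. Egr2, an early growth response factor, was the most even of them, at 10.72, 10.72 and 10.79 with IL-4 and 9.33, 9.33 and 9.34 with PBS. The rise of 1.41 ± 0.09 (2.66-fold, limma adjusted p = 1.40e-04) was the same, at 1.42 and 1.41, against both PBS sets. Nfil3 rose by 1.10 ± 0.07 (adjusted p = 1.43e-04), Myc by 1.08 ± 0.13 (adjusted p = 0.00219) and Batf3 by 0.56 ± 0.05 (adjusted p = 7.03e-04). Egr1 rose by 0.99 ± 0.18 and Bhlhe40 by 0.71 ± 0.14, and their calls were lost without IL-4 replicate 2 or 3 and, for Egr1, PBS replicate 1 or 2 (adjusted p up to 0.0853) and, for Bhlhe40, IL-4 replicate 1 (up to 0.116). The count of 10 fell to 5 without IL-4 replicate 2 or IL-4 replicate 3 and to 6 without IL-4 replicate 1 or PBS replicate 2, and the methods' t-test gave 4. The 1 fall was 2 without PBS replicate 3. Irf4, a factor known to act with STAT6, stood at 7.13, 6.92 and 7.15 against 6.18, 6.41 and 5.5, a difference of 1.03 that missed the threshold (adjusted p = 0.0520), and was chosen after its values were seen. Pparg, the fatty acid receptor of alternatively activated macrophages, stood at 8.78, 8.43 and 8.55 with IL-4 and at 9.47, 9.47 and 7.86 with PBS, below PBS replicates 1 and 2 (-0.88) and above PBS replicate 3 (0.72), and was not called (adjusted p = 0.681). Of the other factors the study names for this state, Stat3, Stat4, Irf1, Irf2, Irf3, Jun, Cebpb, Rela, Creb1, Ppara, Trim24, Thrb, Rxra and Nr1h3 were not called either, with differences between -0.34 (Rxra) and 0.36 (Thrb).

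Many chemokine ligands rose. Of 30 measured ligands 13 were higher, 12 of them held, and none was lower (background 3.58% and 2.08%), with a median change of 0.63. At an unadjusted limma p under 0.05, 16 were higher and 0 lower. Ccl7, a ligand that draws monocytes, stood at 9.26, 9.73 and 9.51 with IL-4 and at 7.72, 7.64 and 6.73 with PBS and rose by 2.13 ± 0.24 (limma adjusted p = 0.00201). Its groups did not overlap, and PBS replicate 3 was the lowest array. Ccl12, a close relative, stood at 7.38, 7.52 and 7.52 against 5.67, 5.79 and 5.99 and rose by 1.66 ± 0.08 (3.16-fold, adjusted p = 3.39e-05). Cxcl3, which draws neutrophils, rose by 1.46 ± 0.21 (adjusted p = 0.00654) and Cxcl11 by 1.38 ± 0.11 (adjusted p = 3.12e-04). Ccl8 rose by 1.77 ± 0.38 (adjusted p = 0.0325), a call lost without each array but PBS replicate 3 (adjusted p up to 0.132). With PBS replicate 3 as the only PBS array 8 of the 30 ligands were called higher. The textbook IL-4 ligands Ccl17 and Ccl22 varied within groups. Ccl17 stood at 7.26, 7.95 and 8.53 with IL-4 and at 7.58, 9.44 and 6.40 with PBS, so the groups overlapped (difference 0.11, adjusted p = 0.952). For Ccl22 the difference was 0.78 (adjusted p = 0.412). Cxcl13, a B cell attractant, stood at 9.11, 9.26 and 9.53 against 5.64, 5.81 and 8.36. It lay 3.57 above PBS replicates 1 and 2 and 0.94 above PBS replicate 3, and its overall difference of 2.69 was not called (adjusted p = 0.0789). Ccl17, Ccl22 and Cxcl13 were chosen after their values were seen.

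Among 20 chemoattractant receptors 1 was higher and 3 were lower, and without PBS replicate 3 5 were lower. The rise was that of Cxcr2, the receptor of neutrophil-attracting chemokines, at 7.16, 7.60 and 7.45 with IL-4 against 4.87, 4.87 and 4.45 with PBS. It rose by 2.68 ± 0.15 (6.41-fold, limma adjusted p = 6.40e-05). Ccrl2, a chemerin-binding receptor, fell by 1.37 (SE 0.14, adjusted p = 0.00137) and Cxcr4, the receptor of Cxcl12, by 0.81 (SE 0.07, adjusted p = 3.55e-04), and both falls held. C5ar2, a complement receptor, was lower at -0.49 (adjusted p = 0.0253), a call lost without IL-4 replicate 1, 2 or 3 or PBS replicate 2 (adjusted p up to 0.101).

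Some inflammatory genes rose too. Of 25 inflammatory cytokines and enzymes, 7 were higher, 6 of them held, and 2 were lower, 1 of them held. Il1b stood at 8.17, 8.39 and 8.13 with IL-4 and at 6.92, 7.12 and 6.98 with PBS and rose by 1.22 ± 0.08 (limma adjusted p = 1.69e-04). Ptgs2, the inducible cyclooxygenase, stood at 8.35, 8.60 and 8.69 against 7.20, 7.33 and 6.24 and rose by 1.62 ± 0.25 (adjusted p = 0.00874). Il6 stood at 4.25, 4.34 and 4.42 against 3.55, 3.71 and 3.31, a rise of 0.81 ± 0.10 (adjusted p = 0.00346). Its PBS mean of 3.52 was dim, with 4.51% of all genes at or below it, and the deposited table carries no background calls. Tnf rose by 0.72 ± 0.13 and Acod1, which makes itaconate, by 0.85 ± 0.19, and these calls were lost without IL-4 replicate 1, 2 or 3 and, for Acod1, PBS replicate 1 or 2 (adjusted p up to 0.0719 and 0.144). The count of 7 fell to 4 without IL-4 replicate 1, 2 or 3, and the methods' t-test called 2 higher and 3 lower. Tnip3, an inhibitor of NF-kB signaling, stood at 9.62, 9.57 and 9.60 against 6.68, 6.92 and 7.61 and rose by 2.53 ± 0.21 (adjusted p = 3.55e-04). Cd40, a costimulatory receptor, rose by 1.06 ± 0.09 (adjusted p = 4.39e-04).

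Pattern and uptake receptors moved in both directions. Of 28 C-type lectins and scavenger receptors 6 were higher, 5 of them held (Olr1, Mgl2, Clec10a, Clec4a3 and, chosen after its values were seen, Clec7a), and 2 were lower. The 2 falls were 0 without IL-4 replicate 1, 2 or 3 or PBS replicate 2, 1 without PBS replicate 1 and 3 without PBS replicate 3. Clec4a3 rose by 0.70 ± 0.08 (limma adjusted p = 0.00167), while Clec4d, a lectin that senses mycobacteria, was lower at -0.77 (adjusted p = 0.0335), a call lost without each array but PBS replicate 3 (up to 0.124). Of 23 Toll-like receptors and adaptors 2 were higher and 6 lower. Tlr7, the endosomal receptor of single-stranded RNA, stood at 10.13, 10.15 and 10.22 with IL-4 and at 11.03, 11.14 and 10.92 with PBS. It fell by 0.86 (SE 0.10, adjusted p = 0.00183). Cd180, a relative of Tlr4, fell by 0.73 (SE 0.08, adjusted p = 0.00149), and Tlr1 rose by 0.51 ± 0.05 (adjusted p = 6.12e-04). The count of 6 falls was 3 without IL-4 replicate 2 or 3 or PBS replicate 2, and without PBS replicate 3 it was 9. The 2 rises were 1 without IL-4 replicate 2 or 3 or PBS replicate 1.

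Interferon-stimulated genes formed the clearest group of falls. Of 48 measured members 38 were lower with IL-4, 30 of them held, and none was higher by limma (background 2.08% lower). At an unadjusted p under 0.05, 44 were lower and 0 higher, and the methods' t-test called 31 lower and 0 higher. They were 22.7% of all held falls. The median change was -0.88, against -0.01 over all genes, with -0.76 against PBS replicates 1 and 2 and -0.97 against PBS replicate 3. In 45 of the 48 the IL-4 arrays lay wholly below the PBS arrays, against 14% of all genes, and 47 had a negative difference. The median level of the list was 8.35, 8.33 and 8.24 on the IL-4 arrays, 9.14, 9.12 and 9.20 on the PBS arrays and 11.19, 11.17 and 11.27 on the LPS arrays, so PBS replicate 3 did not stand apart here. Without PBS replicate 3, 41 members were lower, and against PBS replicate 3 alone 34. With each of the 6 arrays left out in turn the count ran from 34 to 41.

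Ifitm6, of the family of interferon-induced transmembrane proteins, gave the largest of all held falls. It stood at 7.65, 7.99 and 7.96 with IL-4 and at 10.38, 10.54 and 10.20 with PBS and fell by 2.51 (SE 0.11, 5.69-fold lower, limma adjusted p = 2.27e-05). Ifi44l stood at 5.94, 5.83 and 5.85 against 8.42, 8.45 and 7.89 and fell by 2.38 (SE 0.33, adjusted p = 0.00511). Slfn5, of the Schlafen family that restricts viruses and cell growth, stood at 8.03, 7.83 and 7.81 against 9.87, 9.86 and 9.70 and fell by 1.92 (SE 0.08, 3.78-fold lower, adjusted p = 2.14e-05). None of these groups overlapped. Oas2, which makes the oligoadenylates that activate RNase L, stood at 7.48, 7.20 and 6.94 against 9.16, 9.06 and 8.99 and fell by 1.87 (SE 0.13, adjusted p = 1.68e-04). Ifit3b, of the Ifit family that binds foreign RNA, is not on the list. It stood at 5.62, 5.92 and 5.57 against 7.25, 7.25 and 7.29 and fell by 1.56 (SE 0.16, adjusted p = 0.00106), though it can share probes with its near copy Ifit3. Sp100, a nuclear body protein, fell by 1.53 (SE 0.07, adjusted p = 2.20e-05), Trim30d by 1.51 (SE 0.11, adjusted p = 1.84e-04) and Phf11d by 1.36 (SE 0.06, adjusted p = 1.74e-05). Tmem140, whose promoter is shown above, stood at 7.93, 8.02 and 8.17 against 9.79, 9.75 and 8.97 and fell by 1.46 (SE 0.22, adjusted p = 0.00749). Trim30d and the Schlafen, Oas and Ms4a genes also have close paralogs. Also outside the list, Ly6c1, Ms4a6b and Ms4a4c were among the 20 largest held falls, at -1.42, -1.33 and -1.38. The falls of Ly6c1 and Ms4a6b were lost without IL-4 replicate 3 (adjusted p = 0.0536 and 0.0603) and that of Ms4a4c without IL-4 replicate 1, 2 or 3 (up to 0.0796).

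The factors that drive such genes fell in part. Of 14 STAT and IRF factors, 2 were lower and none higher by limma, and without PBS replicate 3 4 were lower. At an unadjusted p under 0.05, 5 were lower and 2 higher, and the methods' t-test called 2 lower. Stat2 stood at 9.23, 9.08 and 9.10 with IL-4 and at 9.88, 9.87 and 9.93 with PBS and fell by 0.75 (SE 0.06, limma adjusted p = 3.55e-04). Irf9 stood at 10.04, 9.88 and 9.96 against 10.49, 10.46 and 10.57 and fell by 0.55 (SE 0.06, adjusted p = 0.00218). Stat2 and Irf9 are known to act together downstream of the interferon receptor. Irf7, the interferon regulatory factor that amplifies the response, stood at 8.01, 8.50 and 7.94 against 8.89, 8.87 and 9.84 and just missed the threshold, at -1.05 (adjusted p = 0.0558, chosen after its values were seen). Il15, a cytokine of the same response, missed it too, at -1.07 (adjusted p = 0.0648). It was 1 of the 8 largest falls against PBS replicates 1 and 2 only, short of 0.5 below PBS replicate 3.

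Some genes that answer mainly to interferon gamma fell as well. Of 14 guanylate binding proteins and immunity GTPases 6 were lower, 2 of them held, and 2 were higher. Irgm1 fell by 0.61 (SE 0.05, limma adjusted p = 3.51e-04) and Gbp7 by 0.51 (SE 0.06, adjusted p = 0.00346), while Gbp5 was higher at 0.59 (adjusted p = 0.0447, lost without each array but PBS replicate 3, up to 0.151). The count of 6 was 2 without IL-4 replicate 2 or 3 or PBS replicate 2 and 3 without IL-4 replicate 1, and the 2 rises were 1 without any array but PBS replicate 3. Of 17 genes of MHC class I presentation 5 were lower, with none held. Tap1, of the peptide transporter, fell by 0.40 (SE 0.05, adjusted p = 0.00390), and the count of 5 was 1 without IL-4 replicate 2 or 3 or PBS replicate 2, 2 without IL-4 replicate 1 or PBS replicate 1 and 3 without PBS replicate 3. Of 12 MHC class II genes 1, H2-DMa, was higher, at 0.59 (adjusted p = 0.0240), lost without IL-4 replicate 1 or 3 or PBS replicate 1 or 2 (up to 0.0989).

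**Figure D3:**
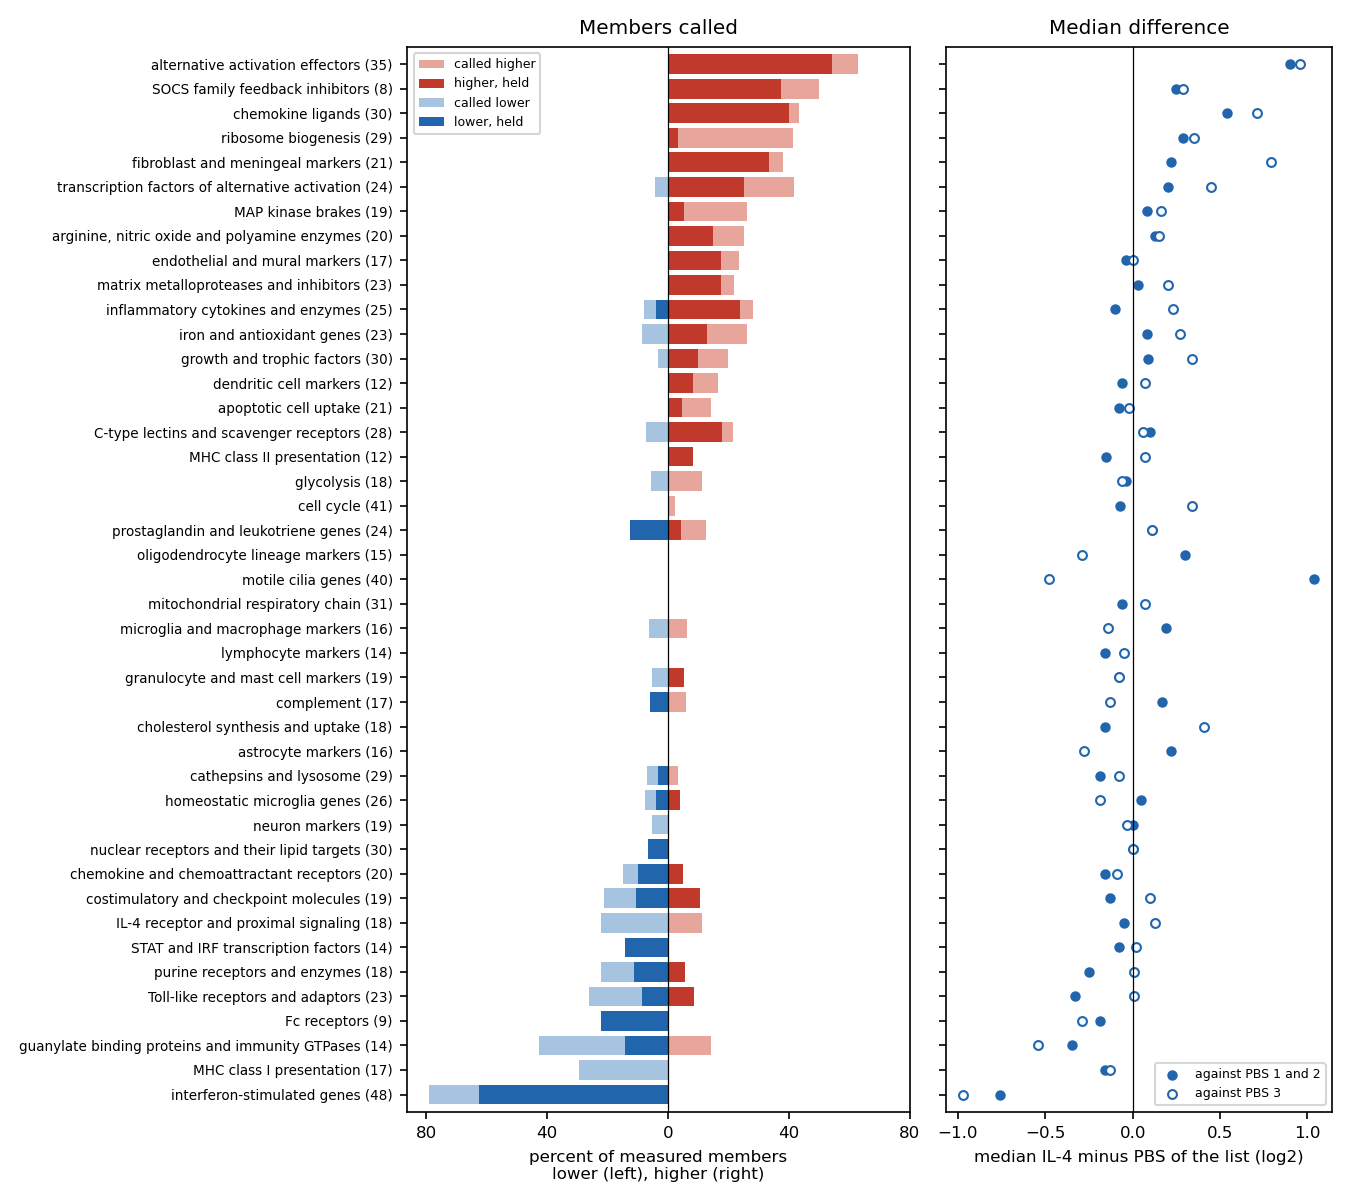
Left, the percent of measured members called higher (red, right of 0) or lower (blue, left of 0) with IL-4 in each gene list, with held members in the darker shade and the number measured in brackets. Right, the median log2 difference of the list against PBS replicates 1 and 2 (filled) and against PBS replicate 3 (open), which for the interferon-stimulated genes are -0.76 and -0.97 and for the motile cilia genes lie on opposite sides of 0, at 1.04 and -0.48.

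Activating Fc receptors for immunoglobulin G were among the falls. Fcgr1, the high-affinity receptor, stood at 8.18, 8.26 and 8.15 with IL-4 and at 9.77, 9.87 and 10.27 with PBS and fell by 1.78 (SE 0.15, 3.42-fold lower, limma adjusted p = 3.55e-04). Fcgr4 stood at 9.23, 9.37 and 9.24 against 10.36, 10.55 and 10.13 and fell by 1.07 (SE 0.11, adjusted p = 0.00106). Those were the 2 called of 9 Fc receptor genes. Fcgr2b, the inhibitory receptor, was not called, at 0.32 (adjusted p = 0.271).

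Enzymes of purine and lipid signals made up other falls. Ada, adenosine deaminase, stood at 7.82, 7.99 and 7.86 with IL-4 and at 9.65, 9.77 and 9.16 with PBS and fell by 1.64 (SE 0.23, limma adjusted p = 0.00590). Hpgd, which inactivates prostaglandins, stood at 8.53, 8.34 and 8.52 against 9.92, 10.06 and 10.15 and fell by 1.58 (SE 0.17, adjusted p = 0.00149). Hpgds, which makes prostaglandin D, stood at 9.26, 9.28 and 9.32 against 10.67, 10.67 and 10.27 and fell by 1.25 (SE 0.15, adjusted p = 0.00238). The groups of these genes did not overlap. Among 24 prostaglandin and leukotriene genes 3 were higher and 3 lower (background 3.58% and 2.08%). The 3 rises were 1 without any array but PBS replicate 3, and without PBS replicate 3 the falls were 5. Cysltr1, a leukotriene receptor, fell by 0.70 (SE 0.12, adjusted p = 0.0150), lost without IL-4 replicate 1 or 3 (adjusted p up to 0.0671). Fabp4, a fatty acid carrier, fell by 1.33 (SE 0.18, adjusted p = 0.00505) and Plin2, the lipid droplet coat protein, by 0.82 (SE 0.09, adjusted p = 0.00139). Klhl6 and Lrrc14b fell by 1.49 (SE 0.27, adjusted p = 0.0174) and 1.90 (SE 0.42, adjusted p = 0.0373), and both calls were lost without each array but PBS replicate 3 (up to 0.0751 and 0.138).

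Some amino acid, iron and growth genes rose, and a few fell. Slc7a2, the inducible carrier of arginine, stood at 11.29, 11.30 and 11.29 with IL-4 and at 10.35, 10.41 and 9.81 with PBS and rose by 1.10 ± 0.15 (limma adjusted p = 0.00416). Of 20 genes of arginine, nitric oxide and polyamine metabolism 5 were higher, 3 of them held, and none was lower, and this count was 1 without IL-4 replicate 2 or 3, 2 without PBS replicate 2 and 3 without IL-4 replicate 1 or PBS replicate 1. Tfrc, the transferrin receptor, stood at 9.49, 9.69 and 9.71 against 8.55, 8.75 and 8.29 and rose by 1.10 ± 0.13 (adjusted p = 0.00231). It was 1 of 6 higher among 23 iron and antioxidant genes, with Steap4, a metalloreductase, at 1.12 ± 0.10 (adjusted p = 4.05e-04). The 2 falls of that list were Slc11a1, a metal carrier of phagosomes, by 0.49 (SE 0.07, adjusted p = 0.00558), and Steap3 by 0.34 (SE 0.07, adjusted p = 0.0238, chosen after its values were seen). The 6 rises were 3 without IL-4 replicate 1, 2 or 3 or PBS replicate 1, and the 2 falls were 1 without any array but PBS replicate 3 and 5 without that array. Of 30 growth and trophic factors 6 were higher and 1 lower, Hgf, by 0.44 (SE 0.08, adjusted p = 0.0135, chosen after its values were seen). The 1 fall was 0 without IL-4 replicate 1 or 2 or PBS replicate 2 and 3 without PBS replicate 3. Hbegf, a growth factor of the epidermal family, rose by 0.87 ± 0.07 (adjusted p = 3.67e-04), and Csf1, the gene of M-CSF, was 11.01 on all 3 IL-4 arrays against 10.45, 10.40 and 10.47, a rise of 0.58 ± 0.05 (adjusted p = 3.99e-04). Of 23 metalloproteases and inhibitors 5 were higher and none lower, among them Timp1, an inhibitor, at 1.15 ± 0.17 (adjusted p = 0.00776), Mmp13 at 0.85 ± 0.13 (adjusted p = 0.00709) and the gelatinase Mmp2 at 0.75 ± 0.09 (adjusted p = 0.00291). Itgb3, the integrin subunit that pairs with the alpha V chain, rose by 1.64 ± 0.18 (adjusted p = 0.00149). Of 19 brakes on MAP kinases 5 were higher, led by the phosphatase Dusp4 at 1.17 ± 0.21 (adjusted p = 0.0170, lost without each array but PBS replicate 3, up to 0.0749), and the count was 0 without IL-4 replicate 2 or 3 or PBS replicate 2, 1 without PBS replicate 1 and 2 without IL-4 replicate 1.

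Some ribosome biogenesis genes rose, in small steps. Of 29 measured members 12 were higher, 1 of them held, and none was lower, with a median change of 0.32 and 28 above 0. In 24 of the 29 the IL-4 arrays lay wholly above the PBS arrays (background 15.5%). Dkc1, of the complex that makes pseudouridine in ribosomal RNA, stood at 8.35, 8.52 and 8.49 against 7.62, 7.76 and 7.75 and rose by 0.74 ± 0.07 (1.67-fold, limma adjusted p = 4.81e-04). Ppan rose by 0.48 ± 0.06 (adjusted p = 0.00291) and Wdr43 by 0.41 ± 0.05 (adjusted p = 0.00415). The count of 12 was 7 without IL-4 replicate 2 and 6 without IL-4 replicate 3, and 5 with PBS replicate 3 as the only PBS array. Of 31 mitochondrial respiratory genes and of 18 cholesterol genes none was called by limma or by the methods' t-test, and at an unadjusted limma p under 0.05 the counts were 1 higher and 0 lower and 2 higher and 0 lower. Of 41 cell cycle genes 1 was higher, Cdk6, at 0.38 ± 0.05 (adjusted p = 0.00572), and without PBS replicate 3 2 were. The cholesterol median was -0.16 against PBS replicates 1 and 2 and 0.41 against PBS replicate 3, and the cell cycle median -0.07 and 0.34. For the mitochondrial genes these medians were -0.06 and 0.07. PBS replicate 3 was above both other PBS arrays in 0 of the 18 cholesterol and 2 of the 41 cell cycle genes.

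Microglial markers gave signal on all arrays, and few were called. Of 16 markers of microglia and macrophages 1 was higher (Adgre1, 0.30, limma adjusted p = 0.0136, lost without IL-4 replicate 2 or 3 or PBS replicate 1 or 2, up to 0.0685) and 1 lower (Trem2, which fell by 0.47, adjusted p = 0.00302). Csf1r, the M-CSF receptor, stood at 11.80, 11.85 and 11.90 with IL-4 and at 11.45, 11.55 and 11.85 with PBS. P2ry12, a purine receptor typical of resting microglia, stood at 8.12, 8.25 and 8.24 against 8.12, 8.21 and 8.68, and Tmem119, a microglial membrane protein, at 7.20, 7.31 and 7.32 against 6.90, 6.91 and 7.30. Cx3cr1, the fractalkine receptor, stood at 9.31, 9.55 and 9.46 against 9.15, 9.22 and 10.86. In Cx3cr1 PBS replicate 3 lay above all other arrays of the comparison, and none of the last 4 genes was called (adjusted p = 0.254, 0.619, 0.276 and 0.725). These 4 were chosen after their values were seen. Without PBS replicate 3 the counts of the 16 markers were 4 higher and 2 lower. Their median difference was 0.19 against PBS replicates 1 and 2 and -0.14 against PBS replicate 3, which was above both other PBS arrays in 14. Of 26 homeostatic microglial genes 1 was higher (Gpr183) and 2 were lower (3.58% and 2.08% of all genes), and without PBS replicate 3 these counts were 5 and 4. Without any other array the 1 rise was lost, and without IL-4 replicate 1, 2 or 3 or PBS replicate 2 the falls were 1.

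Markers of other cells moved with some of these results. In cultures of this kind, fewer cells of a type and less RNA per cell cannot be told apart. Of 21 markers of fibroblasts and meninges 8 were higher with IL-4, 7 of them held, and none was lower, with a median change of 0.41. The median was 0.22 against PBS replicates 1 and 2 and 0.79 against PBS replicate 3. PBS replicate 3 was above both other PBS arrays in only 1 of the 21. Without PBS replicate 3, 8 were called higher. The list's summed signal, on the linear scale, ran from 13008 to 13998 on the IL-4 arrays, 6583 to 11649 on the PBS arrays and 7416 to 12123 on the LPS arrays, so that every IL-4 array was above every other. The low PBS value was that of PBS replicate 3, against 11649 and 11249 on replicates 1 and 2. The low LPS value was that of LPS replicate 3, against 10791 and 12123. Without Dcn, the member with the largest linear gain, the sums were 10778 to 12066, 5654 to 10809 and 6412 to 11012, and the groups overlapped. Dcn, the matrix proteoglycan decorin, stood at 10.92, 11.12 and 11.09 against 9.71, 9.93 and 9.86 and rose by 1.21 ± 0.10 (limma adjusted p = 3.78e-04). Foxc2 and Foxc1, transcription factors of meningeal cells, rose by 1.3 ± 0.21 and 0.89 ± 0.09 (adjusted p = 0.0111 and 8.00e-04), Lum by 1.14 ± 0.13 (adjusted p = 0.00210) and Aldh1a2, which makes retinoic acid, by 1.58 ± 0.25 (adjusted p = 0.00972, and 0.0505 without IL-4 replicate 2). The collagens Col1a1 and Col1a2, chosen after their values were seen, were not called, at 0.06 and 0.41. The methods' t-test called 3 of the 21 higher. Igf2, a growth factor that fibroblasts also make, rose by 1.64 ± 0.24 (adjusted p = 0.00736). The part of such cells in these rises was not tested.

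Of 17 endothelial and mural markers 4 were higher, 3 of them held, with a median of -0.03. Cdh5, the endothelial cadherin, rose by 1.14 ± 0.16 (limma adjusted p = 0.00505) and Pecam1 by 0.79 ± 0.11 (adjusted p = 0.00459). The summed signal of that list was 8337 to 9363 with IL-4, 7838 to 8212 with PBS and 6955 to 7193 with LPS. Flt1, described above, is a member, at 823 to 902 with IL-4 and 127 to 172 with PBS on the same linear scale. Without it the sums were 7435 to 8540 with IL-4 and 7690 to 8040 with PBS, which overlap. Of 16 astrocyte, 15 oligodendrocyte and 14 lymphocyte markers none was called by limma or by the methods' t-test. At an unadjusted limma p under 0.05 the astrocyte markers had 2 higher and 1 lower, the oligodendrocyte markers 0 and 2 and the lymphocyte markers 0 and 4. Of 19 neuronal markers 1 was lower, Gad1, at -0.29 (adjusted p = 0.0444), lost without each array but PBS replicate 3 (up to 0.164). The astrocyte sum ran from 27076 to 27831 with IL-4 and from 23160 to 33764 with PBS, and the oligodendrocyte sum from 4105 to 5049 and from 3464 to 7368. Both PBS maxima were those of PBS replicate 3, which was above both other PBS arrays in 14 of 16 astrocyte and 11 of 15 oligodendrocyte markers. The median differences against PBS replicates 1 and 2 and against PBS replicate 3 were 0.22 and -0.28 for astrocyte markers. For oligodendrocyte markers they were 0.30 and -0.29.

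The motile cilia genes, which mark the ependymal cells that line the ventricles, differed between PBS replicate 3 and the other PBS arrays. The median level of the 40 measured genes was 6.96 and 7.14 on PBS replicates 1 and 2, 8.87 on PBS replicate 3, and 8.26, 8.50 and 8.44 on the IL-4 arrays. With LPS it was 6.81 and 6.68 on replicates 1 and 2 and 8.22 on replicate 3. So the median difference of IL-4 was 1.04 against PBS replicates 1 and 2 and -0.48 against PBS replicate 3, and PBS replicate 3 was above the other PBS arrays in 40 of 40 genes. None of the 40 was called by limma, at an unadjusted p under 0.05 either, or by the methods' t-test, and without PBS replicate 3 2 were called higher. The summed signal was 14535 to 17129 with IL-4, 7549 to 22545 with PBS and 5298 to 16282 with LPS. Foxj1, the master factor of motile cilia, stood at 10.27, 10.51 and 10.36 with IL-4 and at 9.66, 9.69 and 10.72 with PBS.

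Genes that moved against PBS replicates 1 and 2 only followed the same split. Called without PBS replicate 3, at least 0.5 beyond PBS replicates 1 and 2 and short of 0.5 beyond PBS replicate 3, were 183 genes higher with IL-4 (0.974% of all genes tested) and 254 lower (1.35%). PBS replicate 3 lay above PBS replicates 1 and 2 in all 183 of the former and below them in all 254 of the latter, which the choice of genes largely fixes. LPS replicate 3, which entered the choice only through the shared spread of the fit, was higher than the mean of the other LPS arrays in 159 of the 183 and lower in 227 of the 254, against 40.7% and 58.9% of all genes. Mmp9, a gelatinase, stood at 8.83, 9.97 and 9.70 with IL-4 and at 6.18, 6.34 and 9.89 with PBS. It lay 3.24 above PBS replicates 1 and 2 and overlapped PBS replicate 3. Fcrls, a microglial relative of the Fc receptors, stood at 9.64, 10.03 and 9.93 against 7.40, 7.67 and 10.35, and the acute phase gene Saa3 at 10.61, 11.52 and 11.43 against 9.35, 9.77 and 11.79. In the other direction Tmem154 stood at 7.29, 7.17 and 7.30 against 9.75, 9.81 and 7.29, and Fabp5, a fatty acid carrier, at 7.29, 7.28 and 7.46 against 9.08, 9.01 and 7.84. None of these 5 genes was called over all 3 PBS arrays (adjusted p from 0.0677 to 0.412).

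**Figure D4:**
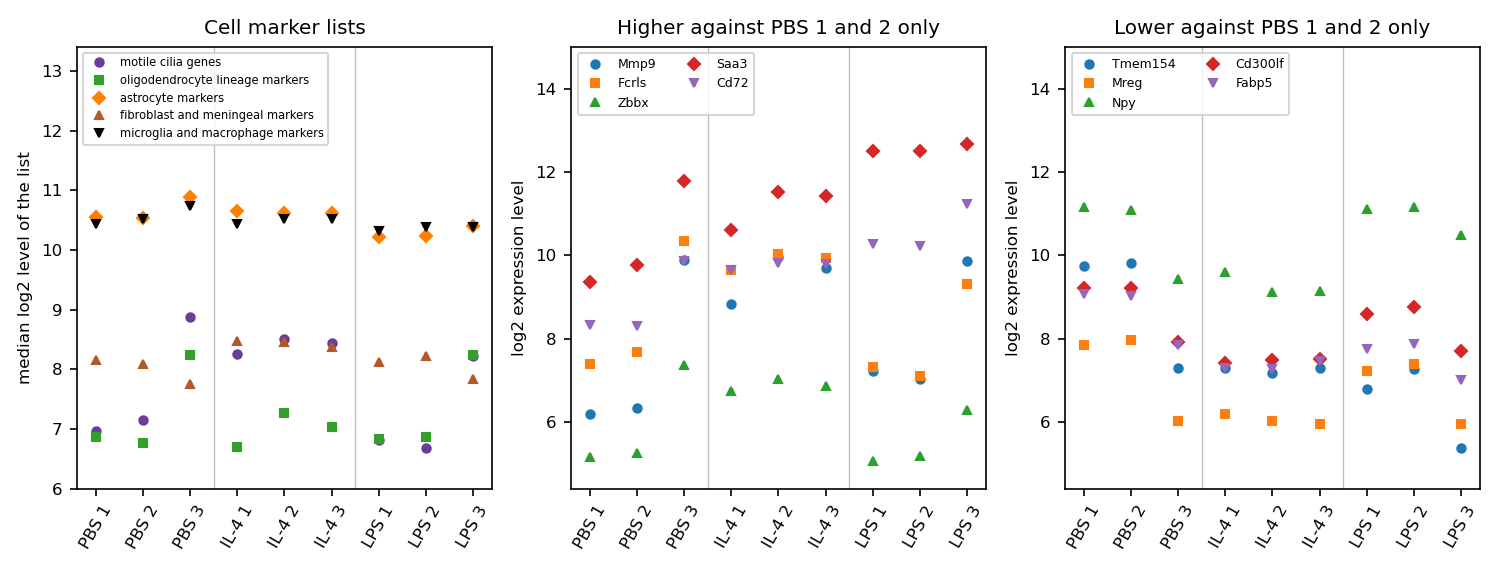
Values on each of the 9 arrays: the median log2 level of 5 cell marker lists (left), and the log2 level of 5 genes that were higher (middle) and 5 that were lower (right) with IL-4 against PBS replicates 1 and 2 only. PBS replicate 3 sits apart from PBS replicates 1 and 2 and near the IL-4 arrays in the middle and right panels, and the cilia median is 8.87 on PBS replicate 3 and 8.22 on LPS replicate 3, against 6.68 to 7.14 on replicates 1 and 2 of both groups.

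The held genes were also set against LPS. Both comparisons use the same IL-4 arrays, so the counts below say where the held genes lay and are not independent of the choice. IL-4 lay above LPS in 27.5% of all genes tested and below it in 21.2%. Of the 181 held rises over PBS, 102 were also higher than with LPS, 57 were lower than with LPS and 22 were not called. Of the 132 held falls, 89 were also below LPS, 23 were above it and 20 were not called. Chil3 stood 5.37 above its LPS mean of 4.30 (limma adjusted p = 1.14e-07), Retnla 5.08 above 4.01 (adjusted p = 5.62e-08) and Cxcr2 3.33 above 4.08 (adjusted p = 7.06e-07). Of the 19 held alternative activation effectors 14 were above LPS and 5 below, the latter being Olr1 (-1.19), Gpr84 (-0.82), Tgm2 (-0.88), Ch25h (-2.63) and Slc7a2 (-0.68), of which Tgm2 and Ch25h were chosen after their values were seen. Cish was not called against LPS, at 9.43 with IL-4 on average and 9.50 with LPS (difference -0.07, adjusted p = 0.889), and neither was Myc (-0.01, adjusted p = 0.936).

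The inflammatory genes that rose lay far below their LPS levels. All 7 held inflammatory cytokines and enzymes, 6 that rose over PBS and 1 that fell, were below LPS. The difference from LPS was -7.92 for Il6 (limma adjusted p = 1.70e-09), -4.44 for Il1b (adjusted p = 6.23e-09) and -4.29 for Tnf (adjusted p = 5.68e-08). Of the 12 held chemokine ligands, 9 were below LPS, Ccl24 and Pf4 were above, and Ccl11 was not called, all 3 chosen after their values were seen. All 30 held interferon-stimulated genes were below LPS, among them Slfn5 at a difference of -3.97 (adjusted p = 1.06e-08). So was Ifit3b, a held fall outside that list, at -5.17 (adjusted p = 6.12e-08). Hpgd, which fell against PBS, was 0.47 above LPS (adjusted p = 0.0479). All 7 held fibroblast and meningeal markers were above LPS as well, Dcn by 1.09 (adjusted p = 4.79e-05).

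**Figure D5:**
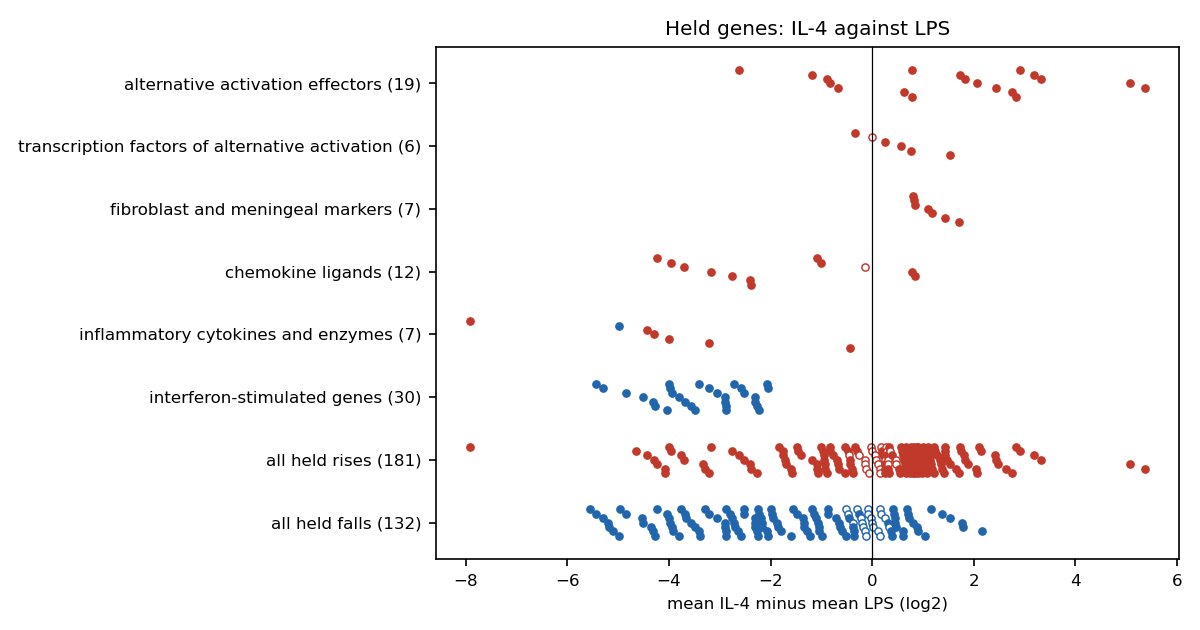
Each point is a held gene at its mean IL-4 minus mean LPS difference (log2), for 6 gene lists and for all held genes, with rises over PBS in red, falls in blue and open points for differences from LPS that were not called. The 30 interferon-stimulated genes lie left of 0 and the 7 fibroblast and meningeal markers right of 0, and the held rises run from Il6 at -7.92 to Chil3 at 5.37.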

How the data were processed

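Levels were measured on Affymetrix Mouse Exon ST arrays, 1 array per sample. The deposited table holds log2 expression values, which the authors made with RMA and the affy package, per the submitters' processing notes. RMA corrects background, brings the arrays to 1 common distribution and summarises the probes of a gene on the log2 scale, which can shrink low signals and hide a shift of all genes. Software versions, the annotation and the genome build are not given in the sources used here. No scanner files were used. The array medians were 7.32, 7.32 and 7.37 with PBS and 7.39, 7.37 and 7.37 with IL-4. Of 21212 rows, 18786 had 1 gene symbol in the platform annotation, 6 had several and 2420 had none here, and 4 of the 18786 share a symbol with another row. Precision is limited by the number of arrays, 3 per condition. Genes that share near-identical copies could not be separated.

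A linear model with a mean for each of the 3 conditions was fitted to all 9 arrays, which share 1 estimate of the spread, with limma 3.58.1 (eBayes) in R 4.3.3. Fold changes are 2 to the power of log2 differences, and p-values were adjusted by Benjamini-Hochberg over all 21212 rows and called under 0.05. Calls without PBS replicate 3 came from the same model on the 8 remaining arrays. Calls against PBS replicate 3 alone came from the 7 arrays without PBS replicates 1 and 2, chosen as a fit after seeing the data, in which the lone PBS array is assumed to vary like the other groups. The test was tried on simulated data with known changes.

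The members and the 43 gene lists (33 pathways and 10 cell types) were chosen with earlier results of these data known. Named genes are the 20 largest held rises and falls, up to 5 called and 2 uncalled members of each list, the 8 largest rises and falls against PBS replicates 1 and 2 only, and the factors the study names for IL-4. Genes outside this rule, other than those at the edge of the size rule, are said to have been chosen after their values were seen. Summed marker signals add 2 to the power of each log2 value.

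Alternatives were each array or PBS replicate 3 left out, the 6 arrays only, a replicate block, array weights, robust and trended eBayes, quantile normalization or median subtraction of the deposited values, a filter on the dimmest rows, other size rules and the methods' t-test. Calls rose in 63.3% of cases as deposited, 55.8% after quantile normalization and 51.5% after median subtraction, where the median of all rows moved from -0.02 to -0.01 and -0.06. Some items are not reported here.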

Additional observations from a re-analysis of the deposited data

How the results depend on the processing

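Called counts moved with the arrays used. Leaving out 1 IL-4 or PBS array gave 437 to 1879 called genes against 1062, 267 to 1007 against 672 higher and 170 to 872 against 390 lower: the lowest counts came without IL-4 replicate 2 and the highest without PBS replicate 3 (1879, of them 872 lower). Any other array left out gave 443 (IL-4 replicate 3), 549 (IL-4 replicate 1), 543 (PBS replicate 1) or 465 (PBS replicate 2). PBS replicate 3 as the only PBS array, an alternative chosen after seeing the data, gave 479 (306 higher, 173 lower). Without LPS replicate 3 and PBS replicate 3 the counts were 5836 (3288 and 2548), the same as with 5 means against PBS replicates 1 and 2 (5836, 3288 and 2548), while 5 means against PBS replicate 3 gave 3073 (1739 and 1334). Array weights gave 7482 (3863 and 3619), median subtraction gave 435 higher, and the methods' t-test gave 675, of them 414 higher. At an unadjusted p under 0.0001 the methods' t-test called 91 higher and 51 lower, and limma 182 and 121.

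Held genes moved less. Leaving out 1 array gave 239 to 274 against 313 in all, 134 to 157 against 181 rises and 102 to 117 against 132 falls, with no held count possible without PBS replicate 3. The methods' t-test gave 197 in all and 103 rises. A size of 0.25 gave 854 (530 and 324) and a size of 1 gave 84 (54 and 30). Against LPS, 102 rises above, 89 falls below and 191 in all became 73 to 87, 72 to 84 and 150 to 171 with 1 array left out, and 46, 65 and 111 with the methods' t-test. Median subtraction gave 78, 106 and 184, so under both of these falls outnumbered rises. Falls also outnumbered rises without IL-4 replicate 3, at 77 against 73. The counts were level without IL-4 replicate 1, at 82 each, and after quantile normalization, at 98 each. Of the 313 held genes, 310 were called with the replicate block, 313 with array weights, 305 after median subtraction, 303 on the 6 arrays only and 217 with PBS replicate 3 alone. No called gene given by the naming rule changed sign under any alternative run. For every called gene the IL-4 arrays lay wholly beyond the PBS arrays. Leaving out arrays, weighting them or changing the test could therefore not have turned a sign. The balance within a list could turn: inflammatory genes went from 7 higher and 2 lower to 2 and 3 with the methods' t-test.

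The replicate numbers did not pair the samples: deviations of same-numbered IL-4 and PBS arrays correlated at 0.339, -0.255 and 0.075. With the number as a replicate block 1272 genes were called and 331 held, and this block is given here only.

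With 3 arrays a group, small changes were not detectable in genes where PBS replicate 3 differed from the other PBS arrays. Levels come from the deposited values, so background correction could not be varied. What sets PBS replicate 3 apart was not tested.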

Other observations

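Some groups of checkpoint and costimulatory genes moved apart. Of 19 measured members 2 were higher (Cd40 and Pdcd1lg2) and 4 lower. Lgals9, a galectin that binds checkpoint receptors, stood at 9.87, 9.73 and 9.72 with IL-4 and at 10.93, 10.94 and 10.62 with PBS and fell by 1.05 (SE 0.09, limma adjusted p = 4.39e-04). Vsir, a checkpoint protein of myeloid cells, stood at 10.00, 10.02 and 10.02 against 10.53, 10.55 and 10.54 and fell by 0.53 (SE 0.08, adjusted p = 0.00942).

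Of 18 purine receptors and enzymes 1 was higher and 4 were lower, Ada among them. The 4 falls were 1 without IL-4 replicate 1, 2 or 3 or PBS replicate 2, 2 without PBS replicate 1 and 6 without PBS replicate 3. P2ry13 fell by 1.11 (SE 0.19, limma adjusted p = 0.0152), a call lost without IL-4 replicate 1, 2 or 3 or PBS replicate 2 (adjusted p up to 0.0704). P2ry14 fell by 0.82 (SE 0.19, adjusted p = 0.0446) and P2rx1 by 0.27 (SE 0.06, adjusted p = 0.0456), both lost without each array but PBS replicate 3 (up to 0.159 and 0.163). P2ry1 rose by 0.74 ± 0.13 (adjusted p = 0.0126), lost without IL-4 replicate 1 or 3 (up to 0.0627). P2ry6 was not called, at 0.46 (adjusted p = 0.146).

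Dendritic cell markers rose in 2 of 12 cases (Batf3 and Fscn1), and in 1 (Batf3) without any array but PBS replicate 3. The summed signal of that list was 2722 to 2852 with IL-4, 1958 to 2469 with PBS and 3803 to 3986 with LPS. Without Fscn1, the member with the largest linear gain, it was 672 to 736 and 577 to 802, which overlap. The part of such cells in the rise was not tested. Gpr183, an oxysterol receptor, is not on that list and was the 1 rise of the homeostatic microglial genes. It stood at 8.48, 8.80 and 8.66 with IL-4 and at 7.40, 7.64 and 8.11 with PBS (0.93 ± 0.19, limma adjusted p = 0.0307, lost without each array but PBS replicate 3, up to 0.122).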
